A study of Mus musculus with 30 samples.

Results

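The genes described here are Hmgcs1, Mvk, Fdps, Fdft1, Sqle, Lss, Dhcr7 and Insig1. They were chosen by name, with earlier results of these data known, and make up 8 of 21887 protein-coding genes. Each was taken with 1 kb on each side of its RefSeq coordinates (GRCm38.p6), without telling exons from introns. The first 7 code for enzymes of cholesterol synthesis and the eighth for a sterol-dependent regulator of the pathway. None codes for a receptor that takes up cholesterol, so genes of uptake are given apart, as a list for comparison. Chromatin immunoprecipitation followed by sequencing had been carried out on a mouse neuroblastoma line, NOS1+ N1E115, after 3 days of culture at 4% O2, against the same line after 3 days at 20% O2. NOS1+ is the name in the labels for the cells of both groups, and 5% CO2 is stated for the samples of replicate 2. For each of 6 antibodies there were 2 libraries from 4% O2 and 2 from 20% O2. The antibodies recognised RNA polymerase II (POLR2), polymerase with phosphate on serine 5 (POLR2S5) or on serine 2 (POLR2S2) of its tail repeats, histone H3 acetylated at lysine 9 (H3K9ac), the insulator protein CTCF and the cohesin subunit RAD21. Replicates 1 and 2 came from different flow cells and are called rounds 1 and 2. For CTCF, replicate 1 came from another flow cell than replicate 1 of the other antibodies. All values come from bulk chromatin of a single cell line, so a change in the share of cells with polymerase on a gene and a change per cell cannot be told apart.

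Cells build cholesterol from acetyl-CoA through mevalonate, farnesyl diphosphate, squalene and lanosterol. The genes of this route are known targets of SREBP2, a membrane-bound transcription factor that is cut and released when sterols in the endoplasmic reticulum are low. Insig1 protein holds the SREBP escort SCAP in the endoplasmic reticulum when sterols are high, and Insig1 is itself an SREBP target. Squalene epoxidation and later demethylation and desaturation steps use molecular oxygen. Serine 5 phosphorylation is found mostly on polymerase near gene starts and serine 2 phosphorylation on polymerase that has moved into genes, while H3K9ac marks active starts.

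Promoter sequences came from RefSeq (GRCm38.p6, the same build as mm10), each covering 250 bases before and 50 after an annotated start. Entries were found for 5 of the 8 genes, 7 in all, since Dhcr7 has 3. Fdps, Fdft1 and Sqle had no entry. Both strands were searched for TCACNCCAC, a sterol regulatory element form, for CCAAT, the NF-Y motif often found beside it, for GGGCGG, an Sp1 motif, and for ACGTG and GCGTG, core forms of the hypoxia response element. Hmgcs1 alone had H3K9ac within 1 kb of its start in all 4 libraries together with a match to TCACNCCAC, so its promoter is shown by rule. The Mvk promoter, with the most CCAAT matches, and the downstream Dhcr7 promoter were added after their values were seen. H3K9ac, CTCF and RAD21 peaks cover that Dhcr7 promoter in part, and none of them covers its start. Capitals mark TCACNCCAC and CCAAT matches. A CCAAT match on the other strand reads ATTGG. All 3 genes lie on the plus strand and are printed on it.
Hmgcs1, chr13:119690101-119690400: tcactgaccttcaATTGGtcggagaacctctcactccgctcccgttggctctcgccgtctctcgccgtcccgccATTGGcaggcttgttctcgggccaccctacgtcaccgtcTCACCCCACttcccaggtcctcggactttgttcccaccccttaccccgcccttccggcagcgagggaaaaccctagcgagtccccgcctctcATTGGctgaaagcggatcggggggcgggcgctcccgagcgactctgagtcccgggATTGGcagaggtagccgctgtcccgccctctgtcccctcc
Mvk, chr5:114444019-114444318: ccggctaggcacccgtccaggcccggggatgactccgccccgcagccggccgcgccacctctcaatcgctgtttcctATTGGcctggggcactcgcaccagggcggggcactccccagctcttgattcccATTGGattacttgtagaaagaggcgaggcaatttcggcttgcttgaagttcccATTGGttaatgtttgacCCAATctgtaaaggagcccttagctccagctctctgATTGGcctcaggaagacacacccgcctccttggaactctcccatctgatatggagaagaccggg
Dhcr7 downstream start, chr7:143829964-143830263: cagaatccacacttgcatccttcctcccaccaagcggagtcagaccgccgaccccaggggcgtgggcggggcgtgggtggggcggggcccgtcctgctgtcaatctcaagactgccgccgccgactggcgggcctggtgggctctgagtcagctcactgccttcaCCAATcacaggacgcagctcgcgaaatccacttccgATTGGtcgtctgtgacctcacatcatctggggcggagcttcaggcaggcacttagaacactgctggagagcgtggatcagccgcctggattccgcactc

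The TCACNCCAC match of Hmgcs1 began 137 bases upstream of the start, and 1.24% of all 32851 promoter entries held such a match. Hmgcs1 had 4 CCAAT matches, 237, 176 and 45 bases upstream and 11 bases into the gene. Mvk had 5, at 173, 120, 67, 50 and 14 bases upstream, and the downstream Dhcr7 start had 2, at 85 and 49 bases upstream. Insig1 and Lss had 1 each, 216 and 62 bases upstream, and neither of the other Dhcr7 entries had any. CCAAT was found in 37.4% of all entries. ACGTG, found in 19.6% of all entries, matched the Insig1 promoter 4 times. Of these, the matches that begin 101 and 100 bases upstream overlap on opposite strands. The Dhcr7 entry with its start at chr7:143823399 had 2 ACGTG matches, 164 and 163 bases upstream, which also overlap on opposite strands. GCGTG, found in 32.4% of all entries, matched Insig1 2 times, Lss once and the downstream Dhcr7 entry 3 times. GGGCGG was found in 35.7% of all entries and in 6 of the 7 entries of these genes. These are matches of letters only.

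Polymerase was recorded as islands, stretches of enriched signal with a whole-number read count, and the other antibodies as peaks with a score. POLR2 islands summed to 5.93 and 10.17 M reads (M, mega) at 4% O2, against 2.06 and 8.60 M at 20% O2. The sums were 10.98 and 12.01 M against 5.93 and 12.37 M for POLR2S5, and 10.43 and 16.6 M against 4.87 and 9.70 M for POLR2S2. The 20% O2 library of round 1 was the smallest for every form, and values without it are given beside the results that moved most. Values that leave out a library take no account of the round, so O2 level and round are then partly mixed. Of 15 neuroblastoma and sympathetic markers, H3K9ac was called at 14 and 15 in the 4% O2 libraries and at 14 and 14 in the 20% O2 libraries, and Ptprc, Csf1r, Aif1, Cx3cr1 and Itgam, markers of macrophages and microglia, had no H3K9ac call in any library. The other marker lists had 5 genes each. Astrocyte markers were called at 1 and 1 against 2 and 2 genes, oligodendrocyte and Schwann cell markers at 2 and 2 against 3 and 2, and fibroblast and endothelial markers at 2 in each library.

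POLR2S5 islands covered all 8 genes in all 4 libraries, where 52.7% of all genes had one in all 4. POLR2S2 did so for 7 (42.8% of all genes) and POLR2 for 5 (42.2%). Mvk, mevalonate kinase, was the gene without POLR2S2 islands in every library, with 33 and 146 reads listed at 4% O2 and no island at 20% O2. For POLR2, Hmgcs1 and Mvk had no listed island in the 20% O2 library of round 1. Sqle, squalene epoxidase, had a POLR2 island in the 20% O2 library of round 2 alone, with 2415 reads over 41 kb. An absent island was treated as a missing value in the main test. Among 8925 genes with POLR2S5 and POLR2S2 islands in all 4 libraries, POLR2 was unlisted at 3.25% and 1.64% at 4% O2, against 16.4% and 1.31% at 20% O2, and at 0.975% of them in 3 or more libraries, as for Sqle.

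Levels were compared between genes per kb of gene window, in RPM (reads relative to the library's TMM-scaled sum over all windows compared), with island reads shared out evenly along each island. Insig1 had the highest POLR2S5 level of the 8 at both O2 levels, with 14.2 ± 3.80 at 4% O2 and 12.2 ± 1.96 at 20% O2 (SD, n = 2 each), at the 99.2 percentile of 11532 genes. Mvk had the lowest, with 0.520 ± 0.130 against 0.555 ± 0.148, at the 12.7 percentile. At 4% O2 the other 6 followed Insig1 in the order Hmgcs1 (8.69 ± 0.433), Lss (8.14 ± 4.72), Fdps (7.54 ± 0.461), Sqle (6.63 ± 0.344), Fdft1 (6.25 ± 2.52) and Dhcr7 (4.66 ± 1.44). At 20% O2 the order was Sqle (6.64 ± 1.33), Hmgcs1 (6.22 ± 0.731), Fdps (5.25 ± 0.853), Lss (4.93 ± 2.96), Fdft1 (3.52 ± 2.52) and Dhcr7 (2.79 ± 1.39). Among these 6, neighbours in either order differed by less than the sum of their SDs, except Fdps and Sqle at 4% O2. Insig1 and Mvk differed from their own neighbours in order by more than that. Insig1 and Lss at 4% O2 differed by less than the sum of their SDs. In the 4% O2 library of round 2 they were nearly equal, at 11.6 and 11.5. Islands covered the whole Insig1 and Hmgcs1 windows in every POLR2S5 library, but from 5.46% to 9.48% of the Mvk window.

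**Figure D1:**
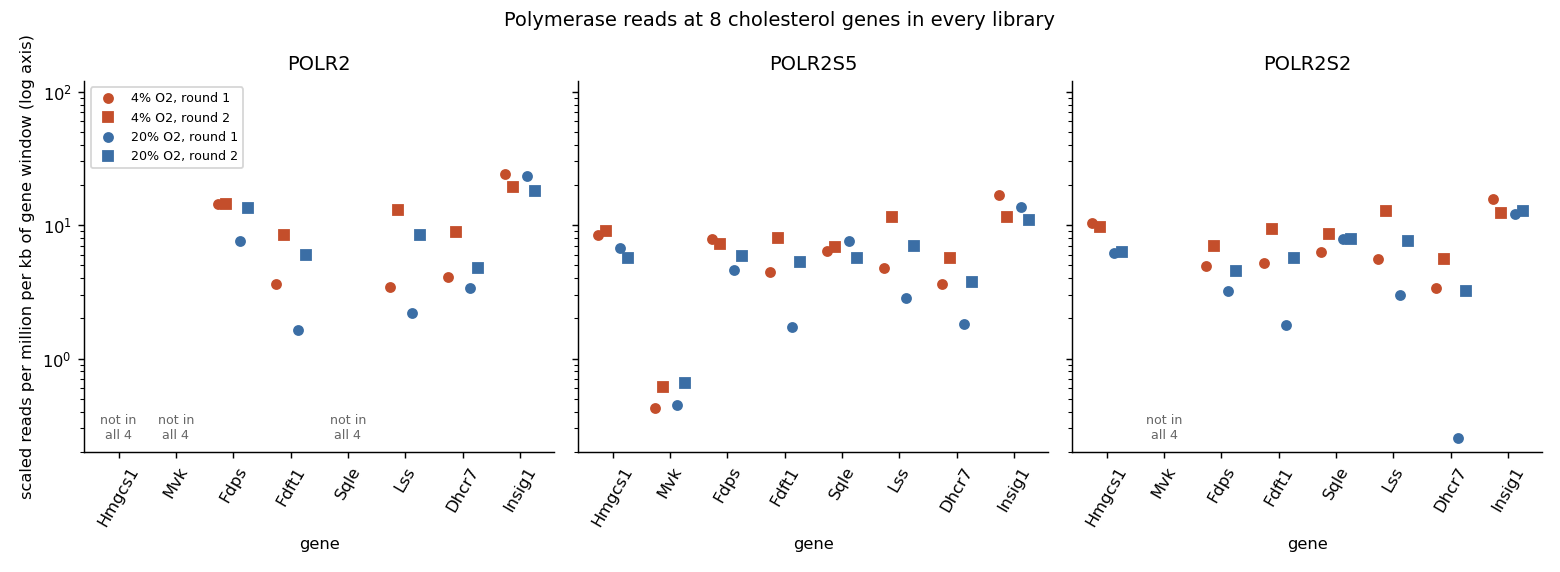
Polymerase level at each gene, in RPM per kb of gene window on a log axis, for the 3 polymerase forms; each point is 1 library, orange for 4% O2 and blue for 20% O2, circles for round 1 and squares for round 2. Insig1 has the highest mean in every form at both O2 levels, and Mvk lies below 1 in POLR2S5 and is missing from the other forms.

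Differences between O2 levels were tested on reads summed over regions, which are merged islands present in all 4 libraries, and ratios are given as log2 of 4% over 20% O2. Over all regions edgeR called 0% at an adjusted p under 0.05 in each form, of 7811 for POLR2, 9933 for POLR2S5 and 5936 for POLR2S2. At an unadjusted p under 0.05 it gave 174, 288 and 349 regions (2.23, 2.9 and 5.88%), and DESeq2 called 1, 19 and 53 regions. None of the regions of the 8 genes was among any of these. The adjusted edgeR p of every gene's main region was 0.992 for POLR2, 0.999 for POLR2S5 and at least 0.809 for POLR2S2. No difference given for a single gene below therefore passed the test. With the sequencing round as a block edgeR called 2, 3 and 11 regions (0.0256, 0.0302 and 0.185%), again none of these genes, whose lowest adjusted p was 0.367, 0.310 and 0.170, at Fdft1 in each form. The unadjusted p with the block was under 0.05 for 1008, 1298 and 917 of all regions (12.9, 13.1 and 15.4%). Among the regions of these genes it was under 0.05 for 2 of 6, 3 of 9 and 3 of 7, all with ratios above 0. They were Fdft1 (0.0403, 0.0117 and 0.00307) and Lss (0.0444, 0.0191 and 0.00802) in POLR2, POLR2S5 and POLR2S2, and the Dhcr7 region that runs to the end of the gene in POLR2S5 (0.0263) and POLR2S2 (0.0141), and none of them passed the adjusted threshold.

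Hmgcs1 (chr13:119690351-119708260), the HMG-CoA synthase that makes the precursor of mevalonate, had more POLR2S5 and POLR2S2 in both 4% O2 libraries than in either 20% O2 library after scaling. Its POLR2S2 region held 2739 and 4186 reads at 4% O2, against 893 and 1915 at 20% O2. Scaled by the TMM-adjusted sum over all compared regions, these were 300.3 ± 1.38 against 217 ± 19.3 RPM (SD, n = 2 each), a log2 ratio of 0.47 ± 0.26 (SE). The groups did not overlap, and the rounds gave 0.56 and 0.37. Its POLR2S5 region held 2522 and 2484 reads at 4% O2, against 1094 and 2004 at 20% O2, a log2 ratio of 0.37 ± 0.27 with 0.38 and 0.36 in the rounds. The groups did not overlap in POLR2S5 either. Both regions reach into Nim1k, whose end lies 1834 bp away. Per kb of island, the log2 ratios of Hmgcs1 were 0.54 in POLR2S2 and 0.49 in POLR2S5.

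Mvk (chr5:114444264-114460591), the next enzyme of the list, phosphorylates mevalonate. Its POLR2S5 region held 70 and 144 reads at 4% O2, against 42 and 114 at 20% O2. After scaling the groups overlapped, with a log2 ratio of 0.20 ± 0.48 and opposite signs in the rounds, -0.09 and 0.39. The region covers the beginning of Mvk and also Mmab, whose nearer end lies 191 bp from Mvk, so reads of the gene pair cannot be told apart. Fdps (chr3:89093588-89101967) makes farnesyl diphosphate, the branch point towards sterols and isoprenoids. Its POLR2 region held 921 and 2118 reads at 4% O2, against 261 and 1392 at 20% O2, a log2 ratio of 0.51 ± 0.42 with overlapping groups. The POLR2S5 ratio was -0.16 ± 0.31 and the POLR2S2 ratio -0.00 ± 0.28. These regions run far beyond Fdps, to 5 other genes in POLR2S2, Gon4l, Msto1, Dap3, Ash1l and Rusc1. For the Fdps window, island reads were shared out evenly by length. This gave log2 ratios of 0.43 ± 0.43, 0.52 ± 0.34 and 0.62 ± 0.42 in POLR2, POLR2S5 and POLR2S2. The POLR2S5 and POLR2S2 ratios thus turned their sign with the measure chosen. Such shares do not separate Fdps from other genes on the same island.

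Fdft1 (chr14:63145150-63181687), squalene synthase, commits farnesyl diphosphate to sterols, and its ratio lay above 0 in both rounds in every form. Its POLR2S2 region held 3237 and 7744 reads at 4% O2, against 519 and 2812 at 20% O2. Scaled, these were 455 ± 140 against 229 ± 156 RPM (SD, n = 2 each), a log2 ratio of 0.99 ± 0.54, with 1.59 in round 1 and 0.71 in round 2. The lower 4% O2 library lay just above the higher 20% O2 library, at 356 against 339 RPM. POLR2S5 reads were 2685 and 4658 at 4% O2, against 748 and 3132 at 20% O2, with a log2 ratio of 0.76 ± 0.43. POLR2 reads were 1260 and 3324 against 307 and 2057, with a log2 ratio of 0.62 ± 0.49, and in both of these forms the groups overlapped. Fdft1 overlaps Ctsb, a cathepsin gene, by 773 bp, and all 3 regions cover Ctsb too. The share of island reads that falls to its window by length gave 0.96 ± 0.65 in POLR2S2, 0.83 ± 0.61 in POLR2S5 and 0.66 ± 0.71 in POLR2. That share does not separate Fdft1 from Ctsb where an island spans both. Without the 20% O2 library of round 1 the region gave 0.42, 0.34 and 0.13 in POLR2S2, POLR2S5 and POLR2. Per kb of island the POLR2 ratio of the region turned to -0.54, while POLR2S5 and POLR2S2 gave 0.26 and 0.31.

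Sqle (chr15:59315092-59331193) adds oxygen to squalene and is a rate-limiting step of the later pathway. Its POLR2S2 region held 4998 and 9127 reads at 4% O2, against 2527 and 4580 at 20% O2, and its POLR2S5 region 4210 and 6036 against 2617 and 6037. The log2 ratios were 0.09 ± 0.23 and -0.04 ± 0.27, with opposite signs in the rounds in both forms. The regions also cover Washc5 and Nsmce2. With island reads shared out by length, the Sqle window had -0.08 ± 0.34 in POLR2S2 and -0.00 ± 0.33 in POLR2S5. This does not separate Sqle from other genes on the same island.

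Lss (chr10:76531565-76557139) closes squalene epoxide into lanosterol, and its regions hold no other protein-coding gene. POLR2S2 reads were 1468 and 5919 at 4% O2, against 397 and 1789 at 20% O2, a log2 ratio of 0.93 ± 0.62 with 0.83 and 0.97 in the rounds. POLR2S5 reads were 1156 and 3446 against 398 and 2118, with 0.74 ± 0.62, and POLR2 reads 399 and 2475 against 112 and 1402, with 0.59 ± 0.81. In every form the 4% O2 library was the higher one within its round, while the groups overlapped because round 2 lay far above round 1. In POLR2S2 the scaled values were 161 and 423 RPM at 4% O2, against 90.6 and 216 at 20% O2. Leaving out the 4% O2 library of round 2 turned the POLR2 ratio to -0.64 and the POLR2S5 ratio to -0.14, and leaving out the 20% O2 library of round 1 turned the POLR2 ratio to -0.10. POLR2S2 islands covered the whole gene window in 3 libraries and 63.6% of it in the 20% O2 library of round 1. POLR2 islands covered 42.2% and 100% of it at 4% O2, against 10.9% and 100% at 20% O2.

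Dhcr7 (chr7:143823167-143848410) reduces 7-dehydrocholesterol to cholesterol, and its polymerase fell into a region at the upstream starts and a longer one that began near the downstream start and ran to the end of the gene. The longer region, chr7:143829001-143849600 in POLR2S2, held 708 and 1912 reads at 4% O2, against 30 and 594 at 20% O2. Scaled, these were 107 ± 41.6 against 39.3 ± 45.8 RPM (SD, n = 2 each), a log2 ratio of 1.44 ± 1.05. The groups did not overlap, but the rounds differed widely, at 3.51 and 0.93. The 30 reads of the 20% O2 library of round 1 came from 1.2 kb of island, against 19.2 to 20.4 kb in the other 3 libraries, and without that library the ratio was 0.58. In POLR2S5 the same region held 695 and 1179 reads against 162 and 850, a log2 ratio of 0.77 ± 0.53, and in POLR2 264 and 1024 against 114 and 489, with 0.58 ± 0.46. The groups overlapped in these 2 forms. The upstream region, shared with Nadsyn1 at a distance of 305 bp, had ratios of 0.21 ± 0.46 in POLR2S5 and 0.13 ± 0.31 in POLR2. Per kb of island the longer region gave 0.24, 0.00 and -0.37 in POLR2S2, POLR2S5 and POLR2.

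**Figure D2:**
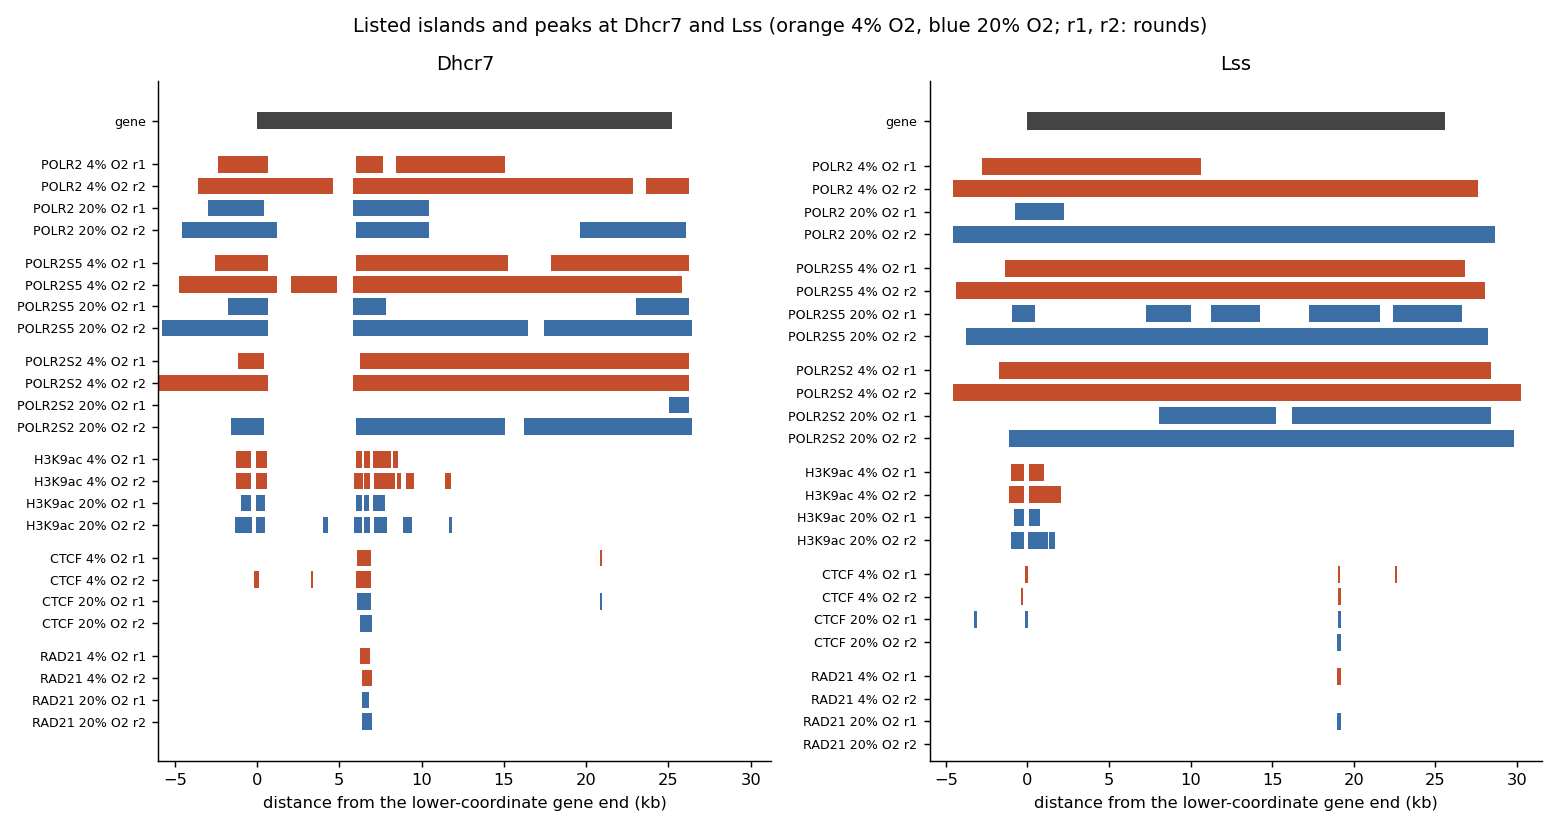
Listed islands and peaks of all 24 libraries at Dhcr7 and Lss, drawn to scale against the distance in kb from the lower-coordinate end of the gene (grey bar); each row is 1 library, orange for 4% O2 and blue for 20% O2. Dhcr7 has CTCF and RAD21 peaks about 6.5 kb into the gene in all 8 rows, and its POLR2S2 island in the 20% O2 library of round 1 covers 1.2 kb at the far end.

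Insig1 (chr5:28071412-28078662) had islands over its whole window in all 12 polymerase libraries, with no other protein-coding gene in its regions. In POLR2 its region held 1235 and 1709 reads at 4% O2, against 481 and 1373 at 20% O2, a log2 ratio of 0.20 ± 0.32. In POLR2S5 it held 2024 and 1842 against 899 and 1859, with 0.20 ± 0.28, and in POLR2S2 2293 and 2986 against 668 and 1472, with 0.50 ± 0.30. The scaled 4% O2 values lay above both 20% O2 values in each form, narrowly in POLR2 and POLR2S5. In POLR2 they were 306 and 252 against 240 and 245 RPM, and in POLR2S5 217 and 178 against 171 and 174. In POLR2S2 they were 252 and 214 at 4% O2, against 152 and 178 at 20% O2. For the window of Insig1, island reads were shared out evenly by length. This gave 0.08 ± 0.41, 0.22 ± 0.36 and 0.18 ± 0.34 in POLR2, POLR2S5 and POLR2S2. On that measure the groups overlapped in each form, and the POLR2S2 ratio of round 2 was -0.03. The islands reach past the window, so reads of the flanking stretches were not taken out.

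Across the main region of each gene, the log2 ratio lay above 0 in both rounds for 5 of 5 in POLR2, where 28.8% of all regions did so. It did for 5 of 8 in POLR2S5 (29.8% of all regions) and 5 of 7 in POLR2S2 (32.4%), and for none did it lie below 0 in both. In round 2 alone, a count added after the data were seen, it lay above 0 for 5 of 5, 8 of 8 and 6 of 7, where 49.6, 49.4 and 50.7% of all regions did. Both scaled 4% O2 values lay above both 20% O2 values for 1, 2 and 4 genes, against 14.9, 15.3 and 20.3% of regions in POLR2, POLR2S5 and POLR2S2. The genes were Insig1 in POLR2, Hmgcs1 and Insig1 in POLR2S5, and those with Fdft1 and Dhcr7 in POLR2S2. For 0 genes did both lie below, against 15.9, 15.4 and 19.1% of regions. With 2 libraries against 2, an exact permutation test (two-sided) cannot give a p under 0.3333. As the genes were chosen with earlier results of these data known, these counts are a description and not a test.

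In POLR2 the 6 regions of these genes had a median log2 ratio of 0.54, against -0.03 over all regions. The 9 POLR2S5 regions had 0.21, against -0.01, and the 7 POLR2S2 regions 0.50, against -0.00. In the same order of forms, round 1 gave 0.58, 0.38 and 0.73 and round 2 gave 0.37, 0.36 and 0.37. Island lengths differed between libraries, and per kb of island the medians were -0.21, 0.19 and 0.24, so that of POLR2 turned its sign. On that scale the median of all regions was -0.48, -0.30 and -0.37, and 4 of 5, 7 of 8 and 7 of 7 main regions lay above it. Without the 20% O2 library of round 1 the medians were 0.13, 0.19 and 0.39. Without the 4% O2 library of round 2 the POLR2S5 median was -0.12 and the POLR2 median 0.07. Leaving out a library sets uneven rounds against each other, unlike the medians within rounds given above.

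**Figure D3:**
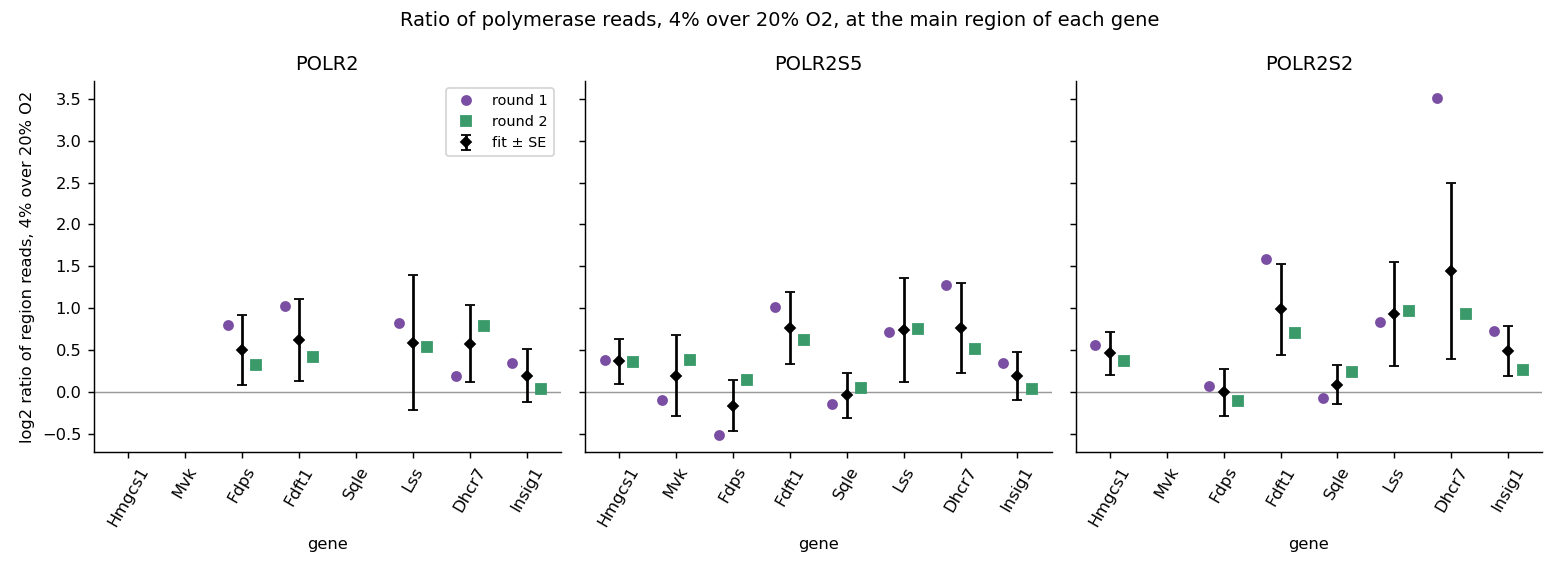
Log2 ratio of reads, 4% over 20% O2, at the main region of each gene in the 3 polymerase forms; diamonds with bars are the edgeR estimate ± SE (n = 2 libraries per level), circles the ratio in round 1 and squares that in round 2. Fdft1, Lss, Dhcr7 and Insig1 lie above 0 in both rounds in every form, whereas Sqle and Fdps lie near 0 in POLR2S2.

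H3K9ac was called at 7 of the 8 genes in all 4 libraries, where 58.9% of all genes were. The exception was Mvk, with peaks in both libraries of round 2 and in neither of round 1. Its 2 round 2 peaks lay to either side of the start. The upstream peak lies within Mmab, so it cannot be credited to Mvk alone. Scores (−log10 q, the authors' own) were 13.6 upstream and 11.7 downstream at 4% O2, against 9.14 upstream and 4.23 downstream at 20% O2. The 8 genes held 40 acetylated regions, 18 of them called in all 4 libraries. Peaks at these genes summed to 22.4 and 30.9 kb at 4% O2, against 15.4 and 29.6 kb at 20% O2.

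Scores were compared as percentile ranks within each library over 39931 shared regions. The 18 regions had a median rank difference of 11.3 points (4% minus 20% O2), with 21.7 in round 1 and 3.24 in round 2, against 0.14 over all shared regions. Without the 20% O2 library of round 1 the median difference was -2.76. That comparison sets both rounds at 4% O2 against round 2 alone at 20% O2, so O2 level and round are partly mixed in it. Both 4% O2 ranks lay above both 20% O2 ranks at 5 regions, in Hmgcs1, Fdft1 (2) and Dhcr7 (2), against 13.9% of all shared regions, and below at 0, against 13.1%. Within rounds, 8 regions ranked higher at 4% O2 in both and 1 lower in both. Of all shared regions, 27.4% ranked higher in both and another 27.4% lower in both.

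Fdft1 had a broad acetylated region near its upper end, chr14:63175153-63177865, that ranked at 63.5 and 78.9 at 4% O2, against 5.19 and 50.2 at 20% O2. A second region just beyond it, chr14:63178165-63179703, ranked at 94.9 and 97.7 against 93.3 and 82.6. The groups did not overlap in either, but in the second the round 1 values differed by 1.55 points only. At Dhcr7 the region just past the downstream start, chr7:143830225-143831936, ranked at 61.6 and 91.1 at 4% O2, against 33.8 and 60.3 at 20% O2. The difference was 27.8 points in round 1 and 30.9 in round 2, so it was near equal in both. At its upstream starts the values went both ways. The region over the starts, chr7:143823092-143823773, ranked at 87.3 and 70.4 against 64.8 and 69.1, and the region before them, chr7:143821848-143822824, at 77.0 and 84.9 against 84.3 and 92.7. This region before the starts lies within Nadsyn1 and is the one that ranked lower in both rounds.

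At Hmgcs1 the acetylated regions lay on each side of the printed promoter. The upstream one, which ended 336 bp before the start, had the largest difference of mean ranks among the 18, 51.3 points, with 53.6 and 49.1 in the rounds. In round 1 alone the broad Fdft1 region differed more, by 58.3 points. The downstream one, chr13:119690395-119692895, ranked at 73.9 and 96.9 at 4% O2, against 53.1 and 89.9 at 20% O2, with 20.8 and 6.94 points. Its groups overlapped. Insig1 had a like pair, with differences of -2.63 and 5.18 points upstream and 31.2 and 0.81 points downstream. At Lss the region past the start ranked at 69.3 and 96.7 at 4% O2, against 30.9 and 97.1 at 20% O2, a difference of 38.4 points in round 1 and -0.37 in round 2. All 3 Fdps regions had differences above 0 in round 1 and below 0 in round 2, as did both Sqle regions. The Fdps region at chr3:89089187-89093361 lies below the lower-coordinate end of the gene and within Rusc1. No strand was available for Fdps, so the side of its start is not given.

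**Figure D4:**
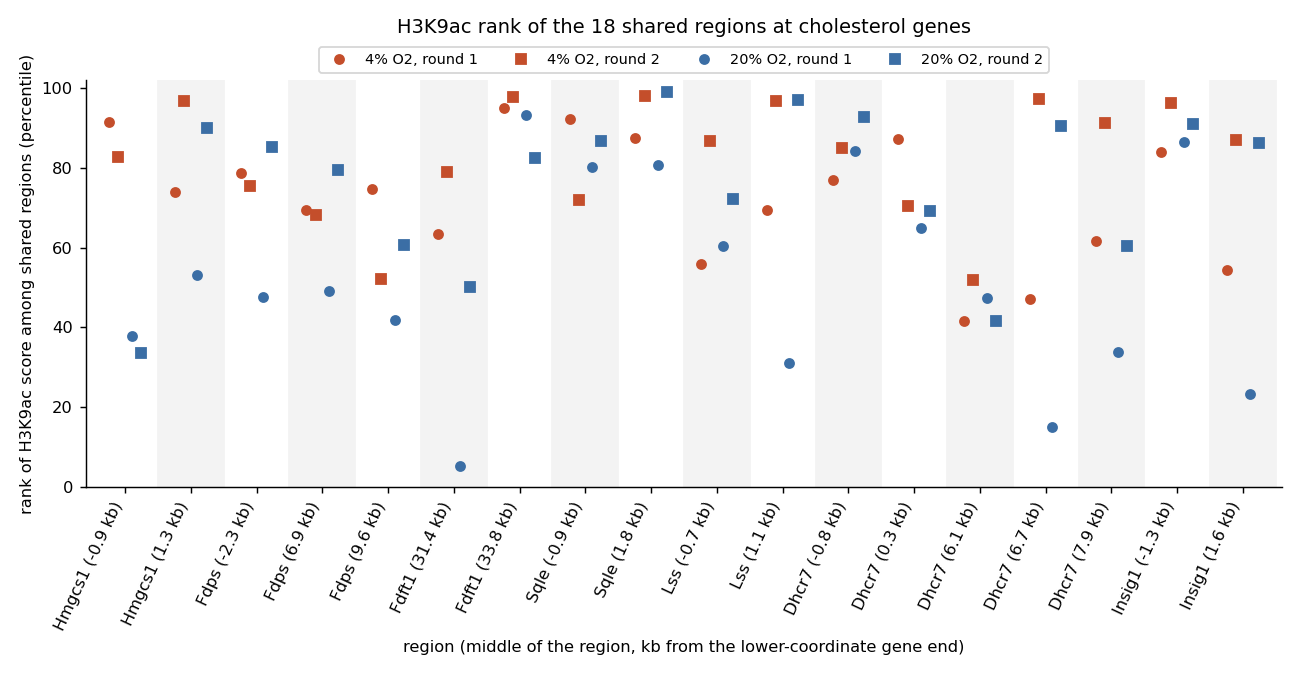
Percentile rank of the H3K9ac score in each library for the 18 acetylated regions called in all 4 libraries, labelled by gene and by the distance of the region's middle from the lower-coordinate gene end; orange is 4% O2, blue 20% O2, circles round 1 and squares round 2. The upstream Hmgcs1 region has both 4% O2 ranks above 82 and both 20% O2 ranks below 38.

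CTCF was called in all 4 libraries at 5 genes, Mvk, Fdft1, Sqle, Lss and Dhcr7 (51.6% of all genes), and RAD21 at Mvk, Fdft1 and Dhcr7 (34.6% of all genes). Insig1 had no CTCF peak in any library and Fdps no RAD21 peak. The site inside Dhcr7 had the highest CTCF scores of these genes. It spanned chr7:143829198-143830131, with scores of 718 and 146 at 4% O2, against 541 and 226 at 20% O2, and ranks of 94.9 and 90.7 against 91.5 and 88.2. RAD21 at the same site had scores of 155 and 92.0 at 4% O2, against 52.5 and 125 at 20% O2. CTCF ranks differed by 3.44 and 2.49 points in the rounds, and the groups overlapped for CTCF. RAD21 ranks were 77.5 and 70.5 against 61.7 and 68.9, without overlap. The round 2 summits of CTCF lay 556 bp upstream of the downstream Dhcr7 start at 4% O2 and 578 bp upstream at 20% O2, and those of RAD21 lay 555 and 588 bp upstream, outside the 300 bases printed above.

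The CTCF and RAD21 sites called in all 4 libraries at Mvk and Fdft1 lay outside the gene, past the upper end. At Mvk the CTCF summits of round 2 lay 862 bp past it at 4% O2 and 883 bp at 20% O2, and those of RAD21 888 and 889 bp. CTCF scores there were 201 and 83.0 at 4% O2, against 198 and 103 at 20% O2, with overlapping ranks. At Fdft1 the CTCF summits lay 540 bp past the gene at 4% O2 and 534 bp at 20% O2, between Fdft1 and Neil2. Its CTCF ranks were 49.9 and 60.4 against 28.7 and 48.3, higher in both rounds and without overlap, whereas its RAD21 ranks were 41.2 and 19.9 against 50.2 and 40.9, lower in both rounds. With no flank the sites of Mvk and Fdft1 dropped out, which left 3 genes for CTCF and 1, Dhcr7, for RAD21. At Sqle a CTCF region just before the lower end ranked at 0.358 and 18.1 at 4% O2, against 4.72 and 13.0 at 20% O2, near the bottom of the lists. Of the shared regions at these genes, 1 of 6 for CTCF and 1 of 3 for RAD21 had both 4% O2 ranks above both 20% O2 ranks, against 10.2% and 16.4% of all shared regions. None had both below, against 9.89% and 17.8%.

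Other genes of the pathway were read from lists of 5 to 15 genes, by the main region of each gene alone. On that basis the 8 genes had median log2 ratios of 0.58, 0.28 and 0.50 in POLR2, POLR2S5 and POLR2S2. In the other lists, 0 main regions passed edgeR in any form, with or without the block. Of 15 other synthesis enzymes, 9, 11 and 11 had a region in all 4 libraries for POLR2, POLR2S5 and POLR2S2. Their median log2 ratios were 0.05, 0.28 and 0.50, above 0 in both rounds for 2, 8 and 9 and below 0 in both for 2, 1 and 1. The highest ratios were 0.86 ± 0.37 in POLR2S5 at Sc5d, a sterol desaturase, and 1.38 ± 0.46 in POLR2S2 at Ggps1, which makes geranylgeranyl diphosphate. Hsd17b7, a sterol ketoreductase, was lowest in all 3, at -1.16 ± 0.29, -1.05 ± 0.44 and -1.01 ± 0.72. The Ggps1 regions also cover Arid4b, and those of Hsd17b7 also cover Ddr2.

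Of 10 genes of uptake and transport, 5, 6 and 8 had shared regions, with medians of 0.65, 0.61 and 0.92, above 0 in both rounds for 4, 5 and 5. The highest were Lrp1, a lipoprotein receptor, at 1.09 ± 0.74 in POLR2, Npc1, a lysosomal cholesterol exporter, at 1.37 ± 0.78 in POLR2S5 and Scarb1, an HDL receptor, at 2.45 ± 0.59 in POLR2S2. The lowest were Scarb1 at 0.38 ± 0.39 in POLR2 and Npc2, a partner of Npc1, at 0.21 ± 0.29 in POLR2S5. The Npc1 region also covers Rmc1 and held 50 reads in the 20% O2 library of round 1, with ratios of 2.57 and 1.003 in the rounds. The POLR2S2 ratios of Scarb1 were 1.49 and 3.60 in the rounds, and the Npc2 region also covers Isca2 and Ltbp2.

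The 6 genes of sterol sensing and SREBP processing had medians of 0.03, -0.12 and 0.08 over 6, 6 and 5 regions. For Srebf2, the gene of SREBP2, the POLR2 ratio was 0.98 ± 1.11, the POLR2S5 ratio 0.06 ± 0.25 and the POLR2S2 ratio 0.08 ± 0.24. Its POLR2 ratio was the highest of the list but differed between rounds, at 4.64 and 0.11, with 44 reads in the 20% O2 library of round 1. The Srebf2 regions also cover Shisa8, and in POLR2S5 and POLR2S2 also Mei1, Ccdc134 and Tnfrsf13c. Insig2, the paralogue of Insig1, was highest in POLR2S5 and POLR2S2, at 0.96 ± 0.45 and 1.12 ± 0.50. Mbtps2, the site-2 protease of SREBP, was lowest in POLR2 and POLR2S5, at -0.81 ± 0.32 and -0.90 ± 0.37, and Srebf1, the gene of SREBP1, in POLR2S2, at -0.59 ± 0.35, in a region that also covers Rai1 and Tom1l2.

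Genes of cholesterol efflux, storage and the liver X receptors had medians of -0.21, -0.61 and -0.41 over 3 of 5 genes. Nr1h2, which codes for liver X receptor beta, was highest in each form, at 0.45 ± 0.38, 0.54 ± 0.34 and 0.87 ± 0.51. The lowest were Nr1h3, which codes for liver X receptor alpha, at -0.33 ± 0.39 in POLR2 and -0.50 ± 0.38 in POLR2S2, and Abca1, a cholesterol efflux pump, at -0.84 ± 0.75 in POLR2S5. Nr1h2 shares its regions with Pold1, and Nr1h3 shares its own with Acp2 and, in POLR2S2, Ddb2. Fatty acid synthesis genes had medians of 0.02, -0.07 and -0.25 over 8 of 9 genes. Acss2, an acetyl-CoA synthetase, was highest in POLR2 and POLR2S2, at 1.46 ± 0.90 and 0.29 ± 0.26, and Acaca, acetyl-CoA carboxylase, in POLR2S5, at 0.50 ± 0.39. The POLR2 region of Acss2, which also covers Gss and Myh7b, held 57 reads in the 20% O2 library of round 1, with ratios of 3.30 and 1.02 in the rounds. Its POLR2S2 region also covers Trp53inp2, Ncoa6, Ggt7 and Gss. The lowest were Scd2, a desaturase, at -0.32 ± 0.45, Fads2, a desaturase of polyunsaturated fatty acids, at -0.56 ± 0.35, and Elovl6, an elongase, at -1.23 ± 0.57, in POLR2, POLR2S5 and POLR2S2. The Fads2 region also covers Rab3il1 and Fads3.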

How the data were processed

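Lists of 24 immunoprecipitated libraries were used, and 6 inputs are not analysed here. Per the submitters' processing notes, the build was mm10 and the tools were BWA, Picard, SICER and, in the later samples, MACS2; no versions are given. Polymerase islands were called with SICER and other peaks with MACS2, per the file headers. The last deposited column was read from its values: whole-number counts of reads per island made by the authors, and −log10 q scores per peak by the authors, used for ranks within a list alone. Island reads are not the depth, which is unknown here, so no counting interval was computed. Replicate 2 had been deposited under 2 labels in all 12 groups, with equal scores, and was counted once. Nothing says that replicates were separate cultures, so p-values measure the spread between libraries, which may be technical. One header (CTCF, 20% O2, replicate 1) holds a code that the labels do not explain, and that library was placed by its label.

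For each antibody, islands or peaks of its 4 libraries that overlapped by 1 bp or more were merged into regions. Genes came from RefSeq (GRCm38.p6). Reads of regions with an island in all 4 libraries were compared with edgeR 4.0.16 (quasi-likelihood, TMM scaling, Benjamini-Hochberg over all regions, threshold 0.05) in R 4.3.3, after tests on simulated data. RPM are reads relative to the TMM-scaled sum over the compared regions or gene windows, not to the sequenced depth, and SE is the estimate divided by the square root of F. The main region of a gene is the one that overlaps its window most, a choice made after the files were seen. Alternatives were DESeq2 1.42.0, scaling to summed reads, no filter on regions and reads per kb of island. Others were island reads shared out by length to the gene window, flanks of 0 and 5 kb and a score of at least 5. Further ones were a 50% overlap, leaving out each library, and a block for the round. Within each antibody, the replicate number marks a flow cell that held both O2 levels, per the file headers. Libraries with the same number deviated together from their group means. Their correlations across regions were 0.53, 0.55 and 0.39 for POLR2, POLR2S5 and POLR2S2. Members and lists were chosen with earlier results of these data known. Named genes are the 8 members, Srebf2 and the highest and lowest ratio of each other list in each form; some genes that this rule names are not reported here. Figures were drawn with matplotlib 3.10.9.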

Additional observations from a re-analysis of the deposited data

How the results depend on the processing

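The count of members past the threshold was 0 for each polymerase form in the main test and in all 10 alternatives. The replicate block changed no call at a member. It gave a POLR2S5 median log2 ratio of 0.25, against 0.21 without it. Other alternatives for the POLR2S5 median were 0.50 within gene windows, 0.33 with no filter on regions, 0.19 per kb of island, 0.19 with scaling to summed reads and 0.29 with a flank of 5 kb. Per kb of island the POLR2 median turned to -0.21 and the POLR2S2 median was 0.24. With no filter the POLR2S2 median was 0.94. That setting counts an unlisted island as 0 reads and takes in regions not listed in every library, such as that of Mvk in POLR2S2. The cause of these shifts was not tested. Leaving out 1 library at a time gave medians of 0.071 to 1.01 for POLR2, -0.12 to 0.49 for POLR2S5 and 0.39 to 0.61 for POLR2S2, and H3K9ac rank differences of -2.76 to 20.5 points. In round 2 alone 8 POLR2S5 ratios lay above 0, against 5 in both rounds. With no flank RAD21 was called at 1 gene and CTCF at 3.

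Of 200 values of single members, 26 turned their sign. Per kb of island these were Fdps -0.035, Fdft1 -0.54, Lss -0.46 and Dhcr7 -0.37 in POLR2, Mvk -0.38, Fdps 0.33 and Sqle 0.025 in POLR2S5, and Sqle -0.081 in POLR2S2. Within gene windows they were Mvk -0.10 and Fdps 0.52 in POLR2S5, and Fdps 0.62 and Sqle -0.080 in POLR2S2. With no filter they were Sqle 0.0040 in POLR2S5 and Fdps 0.041 in POLR2S2, and with scaling to summed reads Fdps 0.0096 in POLR2S2. Leaving out 1 library gave -0.64 to 2.07 for Lss and -0.15 to 1.06 for Dhcr7 in POLR2. In POLR2S5 it gave -0.31 to 0.57 for Mvk, -0.44 to 0.083 for Fdps, -0.22 to 0.14 for Sqle and -0.14 to 1.62 for Lss. In POLR2S2 it gave -0.30 to 0.20 for Fdps and -0.060 to 0.18 for Sqle. Where a level is left with 1 library, that library is assumed to vary like the others. These fits had no block for the round, so O2 level and round are partly mixed in them. Reads per library outside islands are unknown, which limits what an unlisted island can show.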
